A study of Mus musculus with 10 samples.

Results

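The 35 genes described here encode the transporters and enzymes that carry glucose to lactate, and the best-known targets and regulators of the response to low oxygen. They were measured in bone marrow mesenchymal stromal cells, plastic-adherent precursors of bone and fat. A gene was taken where a probe set of the array carried its symbol and no other in the platform annotation, and the probe set with the highest mean over the arrays stood for it. This gave 32 members among 19938 genes, since Gpi1 and Eno1 had no entry and Gapdh appeared only on probe sets with several symbols, and these 3 were not analysed here. The cells came from the marrow of female C57BL/6J mice aged 6 to 8 weeks, with no engineered allele or agent stated, and were used at passage 16 to 17 from MesenCult medium with a 20% mouse mesenchymal supplement. The 5 independent preparations were named MSC I, MSC II, MSC III, MSC IV and MSC V, and each was hybridised to 2 single-colour arrays, 10 in all. The oxygen level of the cultures and the number of mice pooled in a preparation are not given in the sources used here. None is labelled a control, so the mean of each preparation was compared with the unweighted mean of the remaining 4, and MSC I also with MSC V.

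Glucose enters the cell through facilitative transporters, is split by the enzymes of glycolysis into pyruvate, and is either oxidised in mitochondria or reduced to lactate and exported. Hypoxia-inducible factor, HIF, is a pair of proteins whose alpha subunit, encoded by Hif1a or Epas1, is marked for destruction by prolyl hydroxylases while oxygen is plentiful. When oxygen is scarce the alpha subunit accumulates and activates many genes of glucose uptake, glycolysis and lactate export, together with genes of autophagy, growth arrest and collagen hydroxylation. In the marrow, which holds little oxygen, stromal cells are known to rely on glycolysis.

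Values are log2 expression levels, so a difference of 1 is a fold of 2, and levels of different genes are not compared because probe sets differ in their response. The medians of the arrays lay between 6.45 and 6.63, and the median of the whole table was 6.55. Whether the 2 replicates of a preparation were separate cultures is not stated, so the p-values reflect only array-to-array spread, which may be technical. In RNA from a whole culture, fewer cells of a type and less RNA per cell cannot be told apart. Stromal markers were above the table median in both arrays of every preparation for 7 or 8 of 10 genes, while none of 7 endothelial markers was, and 0 to 2 of 11 blood markers were. The mean level of 7 adipocyte markers was 9.39 to 9.95 in MSC I and 6.15 to 6.84 in the 8 other arrays. The defining adipocyte gene Adipoq was at 10.97 and 9.94 in MSC I and between 4.80 and 5.17 elsewhere. The mean level of 5 osteoblast markers was 10.63 to 10.95 in MSC IV, 5.50 to 7.22 in MSC I and 7.08 to 8.81 in the others. That of 7 proliferation markers was 8.69 to 9.44 in MSC IV, 10.80 to 10.98 in MSC I and 9.14 to 11.04 in the others. These differences go with the preparations, so every member difference that involves MSC I or MSC IV moves with them, and their part in it was not tested.

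The enzyme genes Aldoa, Tpi1, Pkm and Ldha had ranges of preparation means of 0.25 to 0.32 log2, while the glucose transporter Slc2a3, both lactate transporters and the hypoxia targets Ndrg1 and Ddit4 were lower in MSC I than in every other preparation. Epas1 was higher in MSC I than in every other preparation. Of the 32 members, 30 had at least 2 arrays above the table median and were tested, a threshold that Car9 and Ankrd37 did not reach. By limma's moderated F test, with an adjusted p under 0.05 and a range of preparation means of at least 1 log2, 13 of 30 members were called, or 43.3%, where 29.1% of all 10971 tested genes were called. By the adjusted p alone 14 of 30 were called, or 46.7%, below the 52.2% of all tested genes. The median range was 1.08 over the members and 0.75 over all tested genes. Of the 30 tested members 17 had their lowest mean in MSC I and 4 their highest, and of the 13 called members 8 had their lowest and 3 their highest mean there. No share of all tested genes is given for these counts, so they are not read as a trait of the members. MSC I also stood apart over all tested genes. By limma's test against the other four, 20.1% were higher and 22.9% lower there at an adjusted p under 0.05, the largest shares of any preparation. Without MSC I the range test called 3 of 29 members, or 10.3%, and 15.5% of the 10725 genes tested. Fewer members were called with either MSC I array left out. Such a fit has a lone array for MSC I, and no share of all genes is given for it, so the fall is not read as particular to the members. Epas1 passed the filter only through MSC I, so leaving out either MSC I array removed it from testing. Its F call held in the 14 other settings that tested it, but could not be ended by those removals. The F calls of Slc2a3, Aldoc, Ldhb, Slc16a1, Slc16a3, Ndrg1 and Ddit4 held in every other setting that kept MSC I and tested them. Those of Pfkfb3 and Pfkp were ended by 11 and 10 of 16 such settings, that of P4ha2 by 6, that of Pfkl by leaving out either MSC I array, and that of P4ha1 by leaving out replicate 2 of MSC I.

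**Figure D1:**
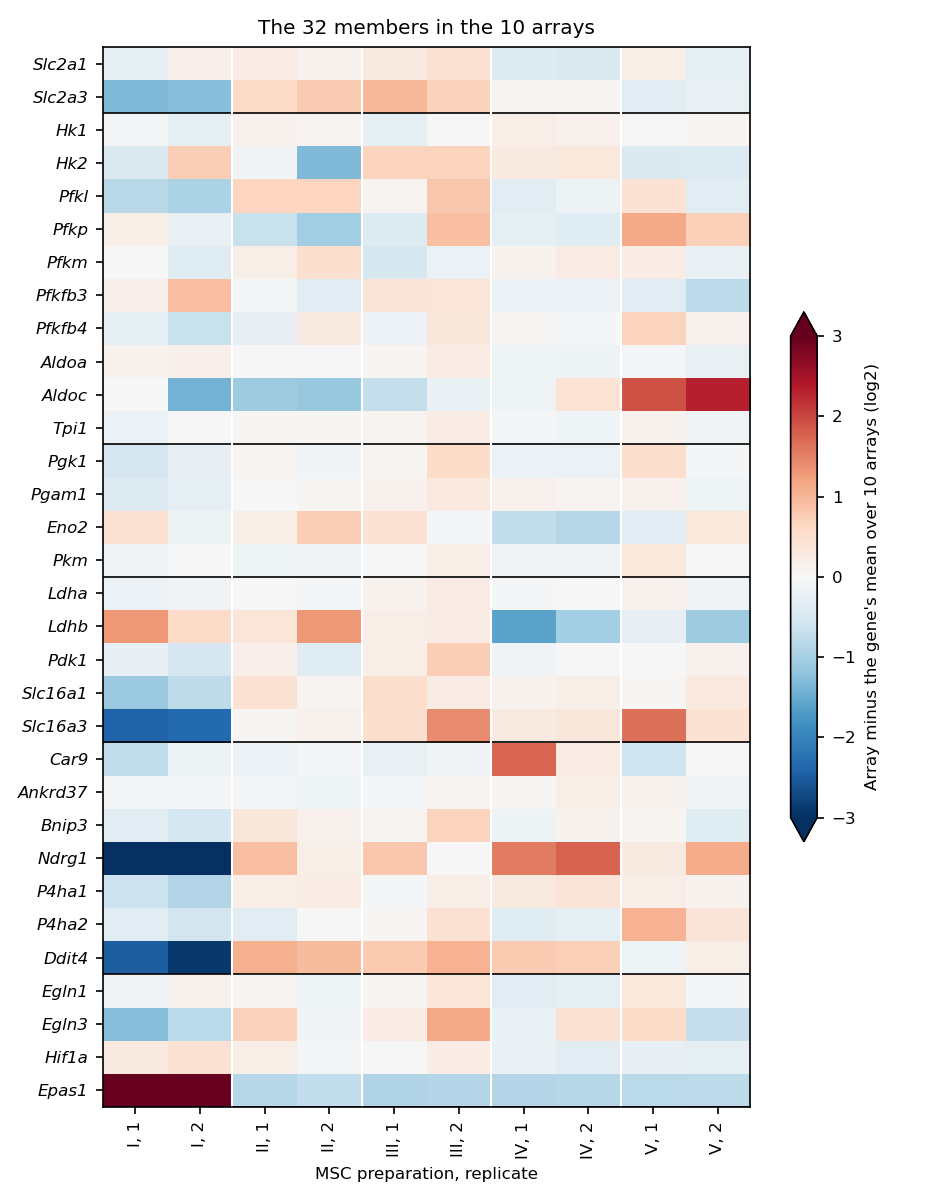
Each cell is the level of a member in an array minus that member's mean over the 10 arrays, on the log2 scale, with members in rows grouped by role and arrays in columns. The colour scale ends at 3 in either direction. Epas1 stands out as high and Ndrg1, Ddit4 and Slc16a3 as low in both MSC I arrays, Aldoc as high in both MSC V arrays, while Aldoa, Tpi1, Pkm and Ldha stay pale throughout.

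Both HIF alpha subunits were highest in MSC I. Epas1, which encodes HIF-2 alpha, the subunit known for its role in blood vessels, fat and erythropoietin control, was at 9.28 and 9.08 in MSC I. In MSC II it was at 4.99 and 5.11, in MSC III at 4.93 and 4.97, in MSC IV at 4.96 and 4.98, and in MSC V at 5.02 and 5.04. The gene was thus well above the table median in MSC I alone, and below it in each of the 8 other arrays. The difference of MSC I from the other four was 4.18 (SE 0.0907). Epas1 passed the filter only through MSC I, so a positive difference there was fixed and is given as a description. The other 8 arrays lay at about the level of the endothelial markers, so no fold is given. Without Epas1 the F test called 12 of 29 members (41.4%). Its calls as lower in MSC III, MSC IV and MSC V came from MSC I standing in their reference: with MSC I taken out, the differences were -0.07, -0.04 and 0.04. The 7 endothelial markers lay at a mean of 5.00 to 5.03 in MSC I and 4.99 to 5.24 in the other preparations. All 6 tested adipocyte markers were called higher in MSC I, a direction that the filter fixed for Adipoq, Plin1 and Cidec. The genes whose profiles over the 10 arrays had the highest Pearson correlation with Epas1 were the fatty acid transporter Cd36 (0.999), Slc38a11, Vstm2a, Iigp1 and Gm4951, a likeness that rests on the pair of MSC I arrays.

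Hif1a, which encodes HIF-1 alpha, the broadly expressed subunit that drives glycolytic genes, varied far less. It was at 12.39 and 12.57 in MSC I, at 12.29 and 12.05 in MSC II, at 12.12 and 12.34 in MSC III, at 11.93 and 11.81 in MSC IV, and at 11.87 and 11.82 in MSC V. Both MSC I arrays lay above all others, though replicate 2 of MSC III and replicate 1 of MSC II came within 0.1 log2 of the lower of them. The difference of MSC I was 0.45 (SE 0.112, adjusted p = 0.0149), and the F test gave an adjusted p of 0.0266 over a range of 0.63, under the 1 log2 needed for a call. The hydroxylase Egln1, the main oxygen sensor for HIF alpha, had a difference of 0.00 in MSC I (95% interval -0.32 to 0.32) and no call in any preparation. Egln3, a hydroxylase that is itself induced by HIF, was at 5.62 and 6.08 in MSC I and between 6.19 and 8.03 elsewhere. It was called lower in MSC I by a fold of 2.46 (SE 0.395 on the log2 scale, adjusted p = 0.0318), but 5 of 17 other settings ended that call, with adjusted p up to 0.202, and its F test gave an adjusted p of 0.107.

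**Figure D2:**
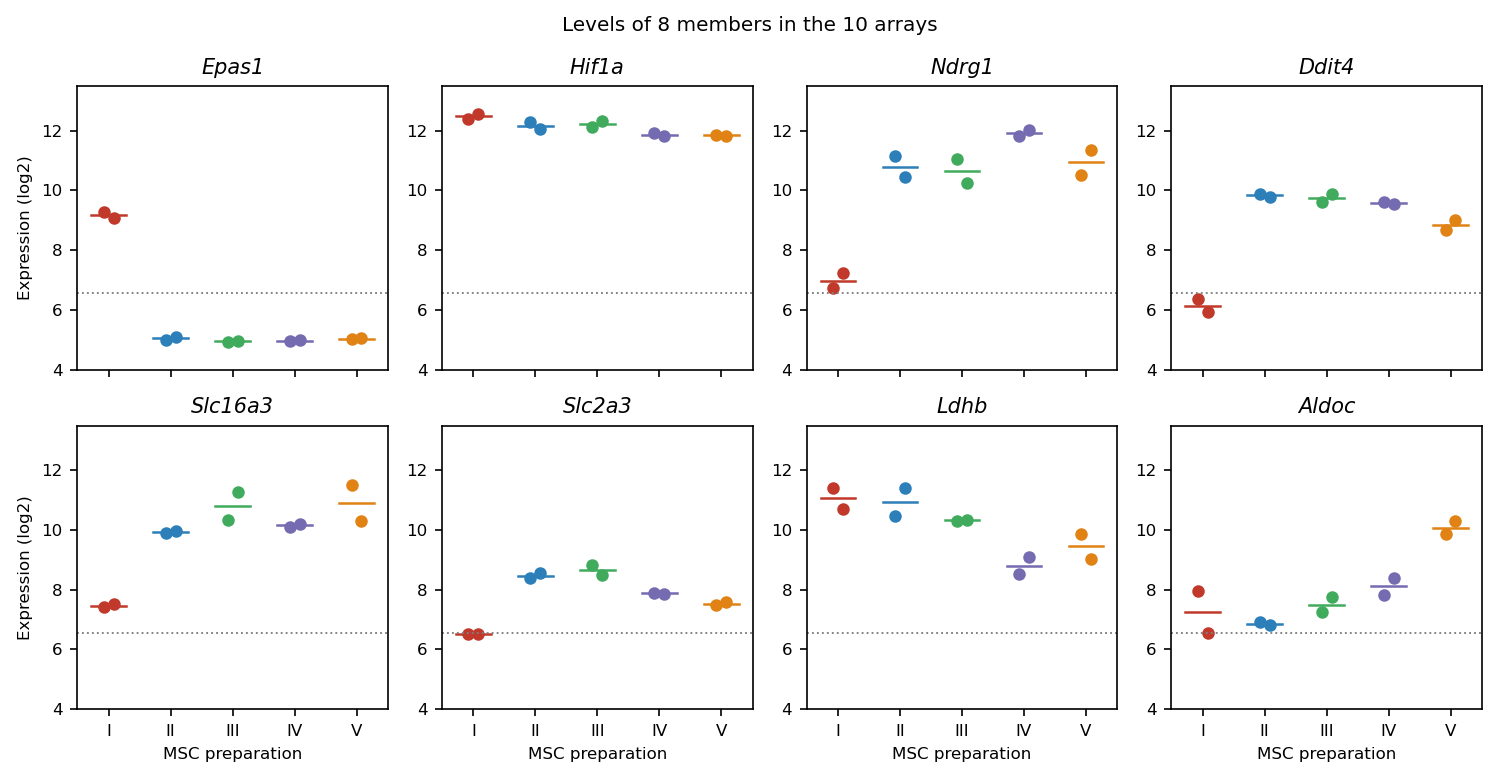
Points are the log2 levels of 8 members in the 2 arrays of each preparation, short lines are the means, and the dotted line is the table median of 6.55. Epas1 is high in MSC I alone, Ndrg1, Ddit4, Slc16a3 and Slc2a3 are lowest there, Ldhb is lowest in MSC IV, and Aldoc is highest in MSC V.

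Of the 5 tested hypoxia targets 4 were called by the F test, where 29.1% of all genes were. In MSC I 2 were called lower, where 5.22% of all genes were, and all 5 had a negative difference, as had 52.8% of all genes. Of the 2, Ddit4 passed the filter only through the other preparations. Ndrg1, a stress-responsive gene known to restrain growth and to be strongly induced by low oxygen, was at 6.74 and 7.22 in MSC I. It was at 11.16 and 10.45 in MSC II, at 11.06 and 10.25 in MSC III, at 11.83 and 12.04 in MSC IV, and at 10.53 and 11.37 in MSC V. MSC I and the rest did not overlap, and MSC IV lay above all other arrays. MSC I was lower by a fold of 17.2 (difference -4.10, SE 0.307, adjusted p = 6.25e-05). MSC IV was higher than the other four by 2.09 (SE 0.307, adjusted p = 0.00248), which was 1.13 with MSC I out of the fit (adjusted p = 0.0486), where the F test did not call Ndrg1 (adjusted p = 0.111).

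Ddit4, also called REDD1, an inhibitor of the growth kinase mTORC1 that responds to low oxygen, glucocorticoids and energy stress, was at 6.35 and 5.93 in MSC I, below the table median. Its levels were 9.90 and 9.78 in MSC II, 9.61 and 9.88 in MSC III, 9.61 and 9.55 in MSC IV, and 8.69 and 9.01 in MSC V. The lowest of those 8 arrays was thus still more than 2 log2 above the higher MSC I array. The difference of MSC I was -3.36 (SE 0.145, adjusted p = 3.12e-06), a fold of 10.3. Ddit4 was also called higher in MSC II by 1.26 and in MSC III by 1.14, but with MSC I taken out of their reference these were 0.45 and 0.32 and were not called. Among MSC II to MSC V alone, Ddit4 was lower in MSC V by 0.87 (difference -0.87, SE 0.131, adjusted p = 0.0124), under the 1 log2 of a call.

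P4ha1 and P4ha2 encode the alpha subunits of the enzyme that hydroxylates proline in collagen, and both were called by the F test over the 5 preparations. P4ha1 was at 10.82 and 10.58 in MSC I and between 11.43 and 11.84 elsewhere, a difference of -0.95 (SE 0.104, adjusted p = 0.000443) that fell just short of 1 log2. Among the other 4 preparations its means spanned 0.26. P4ha2 was highest in MSC V, at 9.56 and 8.91, and its MSC I values of 8.18 and 7.99 overlapped those of MSC II and MSC IV. MSC I was lower than MSC V in P4ha2 (difference -1.15, SE 0.246, adjusted p = 0.0139), and the call was lost without replicate 2 of MSC I or replicate 1 of MSC V. Bnip3, a mitochondrial protein that promotes the autophagy of mitochondria, had a difference of -0.54 in MSC I (SE 0.181, adjusted p = 0.0436) and no F call (adjusted p = 0.0836). Its second probe set gave nearly the same difference, -0.53, with an adjusted p of 0.085.

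Car9, the cell-surface carbonic anhydrase widely used as a hypoxia marker, was below the table median in all arrays but 1. The exception was replicate 1 of MSC IV at 7.34, while replicate 2 of MSC IV was at 5.85 and the 8 other arrays lay between 4.86 and 5.62. With 1 array above the median it was not tested. Ankrd37, another HIF target, lay between 5.73 and 6.05 in the 10 arrays, so no level above the middle of the table was seen in any preparation.

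The 2 lactate transporters were both lower in MSC I. Slc16a3 encodes MCT4, the carrier known for exporting lactate from glycolytic cells and for its induction by HIF-1. It was at 7.41 and 7.52 in MSC I, at 9.89 and 9.97 in MSC II, at 10.33 and 11.26 in MSC III, at 10.12 and 10.19 in MSC IV, and at 11.49 and 10.29 in MSC V. All 8 arrays of the other preparations lay over 2 log2 above MSC I, while the replicates of MSC V were far apart. The difference of MSC I was -2.97 (SE 0.319, adjusted p = 0.000393), a fold of 7.86. Slc16a3 was called higher in MSC V by 1.31 (SE 0.319, adjusted p = 0.0388), which 11 of 18 other settings ended, and it was 0.60 without MSC I in the reference.

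Slc16a1 encodes MCT1, which carries lactate and pyruvate in either direction. It was at 8.996 and 9.35 in MSC I, at 10.55 and 10.19 in MSC II, at 10.63 and 10.32 in MSC III, at 10.20 and 10.27 in MSC IV, and at 10.15 and 10.40 in MSC V. The 4 other preparations could hardly be told apart, with means within 0.24 of each other. MSC I was lower by a fold of 2.25 (difference -1.17, SE 0.152, adjusted p = 0.000979). Without replicate 1 of MSC I the difference was -0.99, just under the size needed for a call.

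Promoters are shown for the 5 members called lower in MSC I that have a RefSeq promoter entry, Slc16a3, Ddit4, Slc16a1, Egln3 and Pfkl, and for Ldha, which was not called. Each line gives the 250 bases before an annotated start in assembly GRCm38.p6, 5′ to 3′ on the gene's own strand, with ACGTG and its reverse complement CACGT in capitals. These letters are a common form of the core to which HIF binds. For genes with several annotated starts the window with the most matches was taken. The windows are chr11:120948817-120949066 on the plus strand for Slc16a3, chr10:59951771-59952020 on the minus strand for Ddit4, chr3:104638414-104638663 on the plus strand for Slc16a1, chr12:54203875-54204124 on the minus strand for Egln3, chr10:78009808-78010057 on the minus strand for Pfkl and chr7:46845554-46845803 on the plus strand for Ldha.
Slc16a3: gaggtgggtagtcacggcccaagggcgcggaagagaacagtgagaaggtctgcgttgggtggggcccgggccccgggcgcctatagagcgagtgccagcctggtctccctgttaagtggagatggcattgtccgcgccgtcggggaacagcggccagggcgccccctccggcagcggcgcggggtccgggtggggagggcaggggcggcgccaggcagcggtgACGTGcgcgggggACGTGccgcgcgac
Ddit4: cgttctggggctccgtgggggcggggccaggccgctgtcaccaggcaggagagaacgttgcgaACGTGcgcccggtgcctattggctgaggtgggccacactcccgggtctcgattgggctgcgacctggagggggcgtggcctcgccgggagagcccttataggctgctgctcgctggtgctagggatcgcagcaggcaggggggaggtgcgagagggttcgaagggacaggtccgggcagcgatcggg
Slc16a1: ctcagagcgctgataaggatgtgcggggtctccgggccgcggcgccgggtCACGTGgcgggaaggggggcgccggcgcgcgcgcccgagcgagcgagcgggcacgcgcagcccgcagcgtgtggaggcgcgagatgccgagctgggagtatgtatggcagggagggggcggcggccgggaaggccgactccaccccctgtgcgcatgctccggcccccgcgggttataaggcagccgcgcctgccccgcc
Egln3: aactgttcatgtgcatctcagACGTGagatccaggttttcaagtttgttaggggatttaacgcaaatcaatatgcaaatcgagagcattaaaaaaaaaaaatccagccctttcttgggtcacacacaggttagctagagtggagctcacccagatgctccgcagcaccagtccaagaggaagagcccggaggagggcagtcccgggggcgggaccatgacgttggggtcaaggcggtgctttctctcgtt
Pfkl: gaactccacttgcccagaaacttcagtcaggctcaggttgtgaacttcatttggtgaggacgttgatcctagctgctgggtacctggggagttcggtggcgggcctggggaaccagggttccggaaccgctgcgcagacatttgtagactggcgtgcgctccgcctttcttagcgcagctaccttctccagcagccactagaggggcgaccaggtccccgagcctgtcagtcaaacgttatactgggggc
Ldha: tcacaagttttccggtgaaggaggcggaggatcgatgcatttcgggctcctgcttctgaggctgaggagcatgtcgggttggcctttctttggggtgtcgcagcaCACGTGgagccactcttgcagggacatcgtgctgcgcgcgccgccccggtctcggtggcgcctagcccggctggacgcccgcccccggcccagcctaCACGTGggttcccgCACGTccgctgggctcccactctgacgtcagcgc

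In Slc16a3 the letters began 27 and 14 bases before the start, in Ddit4 they began 187 bases before it, and in Egln3 229 bases before it. The window of Pfkl held none of these letters, and other forms of the core were not searched. Slc16a1 held the palindrome CACGTG, which counts on both strands, with its first base 200 bases before the start. Ldha held that palindrome at 145 and at 48 bases before the start, and CACGT at 34. Of the 29 members with a promoter in the table, 20 held the letters in at least 1 window, or 69%, against 18.5% of all 27025 genes. By window the shares were 57.5% of 40 member windows and 16.6% of all 32851 windows. Within the list, 6 of 10 called members held them, and 12 of 17 other tested members. The 4 called members whose windows held none were Pfkl, Pfkp, Aldoc and Ldhb. The list names well-known targets of the response to low oxygen, so its larger share is a description and not separate evidence of HIF control. The shares were not compared with promoters of like base composition, and a match of letters is not a measured binding site.

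Of the 2 carriers that bring glucose in, Slc2a3 was called by the F test and Slc2a1 was not (adjusted p = 0.0643). Slc2a1, which encodes GLUT1, the ubiquitous basal carrier, lay between 10.93 and 11.81 in the 10 arrays, with a difference of -0.09 in MSC I (95% interval -0.45 to 0.26). Its MSC IV arrays, at 10.98 and 10.93, were the lowest, by -0.52 (SE 0.154, adjusted p = 0.037), under the 1 log2 of a call. Slc2a3, which encodes the high-affinity carrier GLUT3, was at 6.50 and 6.53 in MSC I, at 8.39 and 8.56 in MSC II, at 8.81 and 8.50 in MSC III, at 7.89 and 7.87 in MSC IV, and at 7.47 and 7.59 in MSC V. The preparations were thus graded, with MSC I at the bottom just under the table median, MSC V and MSC IV next, and MSC II and MSC III overlapping at the top. MSC I was lower by a fold of 3.07 (difference -1.62, SE 0.109, adjusted p = 3.45e-05). Among MSC II to MSC V alone Slc2a3 was still called by the F test (range 1.12, adjusted p = 0.00867), with MSC V at -0.80 and MSC III at 0.69 against the mean of the other 3. Slc2a3 was called higher in MSC III with MSC I in the reference (difference 1.05, SE 0.109, adjusted p = 0.00281), but not without it.

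In upper glycolysis, where glucose is phosphorylated and split, 4 of 10 tested members were called by the F test, where 29.1% of all genes were: Pfkl, Pfkp, Pfkfb3 and Aldoc. Aldoc, the brain-type aldolase, showed the largest range among the enzymes of glycolysis. It was at 9.87 and 10.29 in MSC V, and at 7.94 and 6.54 in MSC I, 6.90 and 6.83 in MSC II, 7.24 and 7.75 in MSC III, and 7.84 and 8.38 in MSC IV. Both MSC V arrays stood above all others, and the 2 arrays of MSC I were farther apart than MSC II was from MSC III. MSC V was higher than the other four by a fold of 6.27 (difference 2.65, SE 0.342, adjusted p = 0.00459), a call kept in all 18 other settings. MSC I was lower than MSC V by a fold of 7.14 (difference -2.84, SE 0.432, adjusted p = 0.00349). Aldoc was also called lower in MSC II (difference -1.36, SE 0.342, adjusted p = 0.0299), which 6 of 18 other settings ended. In the fit of MSC II to MSC V alone the MSC II difference was -1.69 (adjusted p = 0.00647) and the MSC V difference 2.59 (adjusted p = 0.00209). Aldoa, the aldolase of most tissues, kept within 12.53 to 12.97 in the 10 arrays, with an F adjusted p of 0.152.

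Phosphofructokinase commits sugar to glycolysis, and has 3 subunit genes, of which Pfkl and Pfkp were called by the F test. Pfkl, the liver-type subunit, was at 9.55 and 9.44 in MSC I and between 10.05 and 11.21 elsewhere, so the groups did not overlap. MSC I was lower by a fold of 2.18 (difference -1.12, SE 0.234, adjusted p = 0.00753), a call lost without its replicate 2 (adjusted p = 0.0564). Pfkp, the platelet-type subunit, was highest in MSC V at 9.47 and 9.05 and lowest in MSC II at 7.65 and 7.28. In MSC III its 2 arrays, at 7.95 and 9.22, spanned most of that range. Its calls in MSC V (difference 1.17, adjusted p = 0.0467) and in MSC II (difference -1.08, adjusted p = 0.0439) were ended by 10 and 11 of 17 other settings. Pfkm, the muscle-type subunit, had a range of 0.66 and no F call (adjusted p = 0.113).

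Pfkfb3 and Pfkfb4 make a doubly phosphorylated fructose that activates phosphofructokinase. Pfkfb3 was at 7.69 and 8.42 in MSC I, at 7.49 and 7.22 in MSC II, at 7.91 and 7.89 in MSC III, at 7.34 and 7.35 in MSC IV, and at 7.20 and 6.75 in MSC V. MSC I and MSC III overlapped, and MSC V held the lowest 2 arrays. MSC I was higher than MSC V (difference 1.08, SE 0.252, adjusted p = 0.0191), with values from 0.71 to 1.45 over 16 other settings, of which 4 ended the call. Pfkfb4 had a difference of -0.58 in MSC I (95% interval -1.08 to -0.08, adjusted p = 0.0607). Hk2, the hexokinase induced by HIF, differed more within MSC I (8.04 and 9.21) and within MSC II (8.37 and 7.13) than between most preparations, and its F adjusted p was 0.117. The value for Hk1, the widely expressed hexokinase, is uncertain: the sequence record behind its probe set also annotates 17 other probe sets, 16 of which name Rpl17 beside Hk1. The other Hk1 probe set gave a range of 0.77 (F adjusted p = 0.0613).

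**Figure D3:**
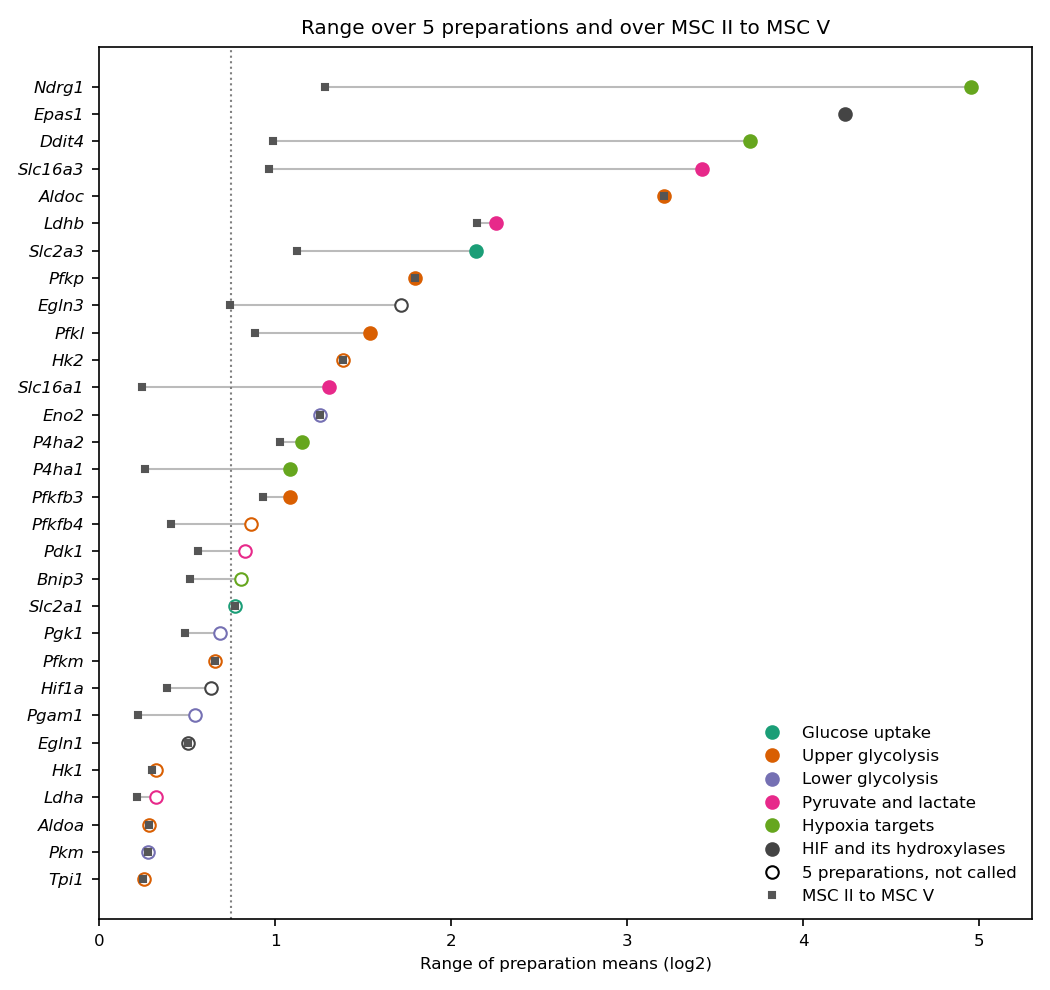
Circles give the range of the 5 preparation means for the 30 tested members on the log2 scale, filled where the F test called the member and coloured by role. Squares give the range over MSC II to MSC V for the 29 members tested there, and the dotted line is the median range of all tested genes, 0.75. Among the 29 members with a square, the ranges of Ndrg1, Ddit4 and Slc16a3 shrink most without MSC I, while those of Aldoc and Pfkp are the same. Epas1 has no square because it was not tested without MSC I.

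Among the remaining enzymes of glycolysis and lactate formation, Tpi1 (triose phosphate isomerase), Aldoa, Pkm (pyruvate kinase) and Ldha (the lactate dehydrogenase subunit favoured in glycolytic cells) had ranges of 0.25, 0.29, 0.28 and 0.32 over the 5 preparations. Pgk1 (phosphoglycerate kinase) and Pgam1 (phosphoglycerate mutase) had ranges of 0.69 and 0.55, beside a median of 0.75 over all tested genes. None of these 6 was called, and at an unadjusted p under 0.05 the limma F test took 1 of them, with F adjusted p from 0.0522 for Pgam1 to 0.368 for Tpi1. Ldha was at 12.59 and 12.67 in MSC I, at 12.77 and 12.73 in MSC II, at 12.88 and 13.02 in MSC III, at 12.71 and 12.76 in MSC IV, and at 12.89 and 12.66 in MSC V. The MSC I difference of Ldha was -0.17 (95% interval -0.40 to 0.05), that of Pkm -0.06 (-0.31 to 0.20) and that of Tpi1 -0.12 (-0.35 to 0.11). These 3 intervals exclude a fold of 1.5 in either direction. Pgam1 was lower in MSC I by less than 1 log2 (difference -0.41, SE 0.102, adjusted p = 0.0149), with both MSC I arrays below all others. In a limma fit of all 12150 probe sets one by one, its other probe sets had an MSC I difference of -0.50 (adjusted p = 0.0096) and an F adjusted p of 0.0379, and the chosen one an F adjusted p of 0.0498, so that Pgam1 passes the adjusted p alone there. Pgk1 and Pgam1 each had 3 probe sets, 2 of them with identical values, so near-identical copies of these genes cannot be told apart.

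Of the 4 tested members of lower glycolysis, Pgk1, Pgam1, Eno2 and Pkm, 0 passed either call rule in the fit by gene, though Pgam1 passed the adjusted p alone in the fit by probe set, and 2 had an unadjusted limma F p under 0.05. Eno2, the neuronal enolase, had the largest range there, 1.26, with an F adjusted p of 0.0599. It was at 7.38 and 7.27 in MSC IV and between 7.81 and 8.87 in the 8 other arrays, without overlap. The MSC IV difference was -0.997 (SE 0.247, adjusted p = 0.0198), a shade under the minimum, and -1.02 among MSC II to MSC V alone (adjusted p = 0.0276), where it was called.

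Lactate dehydrogenase is built from the products of Ldha and Ldhb, and Ldhb, which favours the use of lactate, was called by the F test where Ldha was not. Ldhb was at 11.42 and 10.70 in MSC I, at 10.48 and 11.41 in MSC II, at 10.32 and 10.34 in MSC III, at 8.51 and 9.09 in MSC IV, and at 9.86 and 9.04 in MSC V. MSC I and MSC II overlapped at the top, and MSC IV and MSC V overlapped at the bottom. MSC IV was lower than the other four by a fold of 3.13 (difference -1.65, SE 0.323, adjusted p = 0.00797), a call lost without its replicate 1 (adjusted p = 0.0715). MSC I was higher by 1.18 (SE 0.323, adjusted p = 0.0221), a call lost without its replicate 1 and with MSC IV out of the reference, where the difference was 0.81. The second Ldhb probe set gave a range of 2.44 and an F call as well, beside 2.26 for the first. Pdk1, the kinase that keeps pyruvate out of mitochondria, was called in no preparation, with a difference of -0.47 in MSC I (95% interval -0.88 to -0.05, adjusted p = 0.0667).

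**Figure D4:**
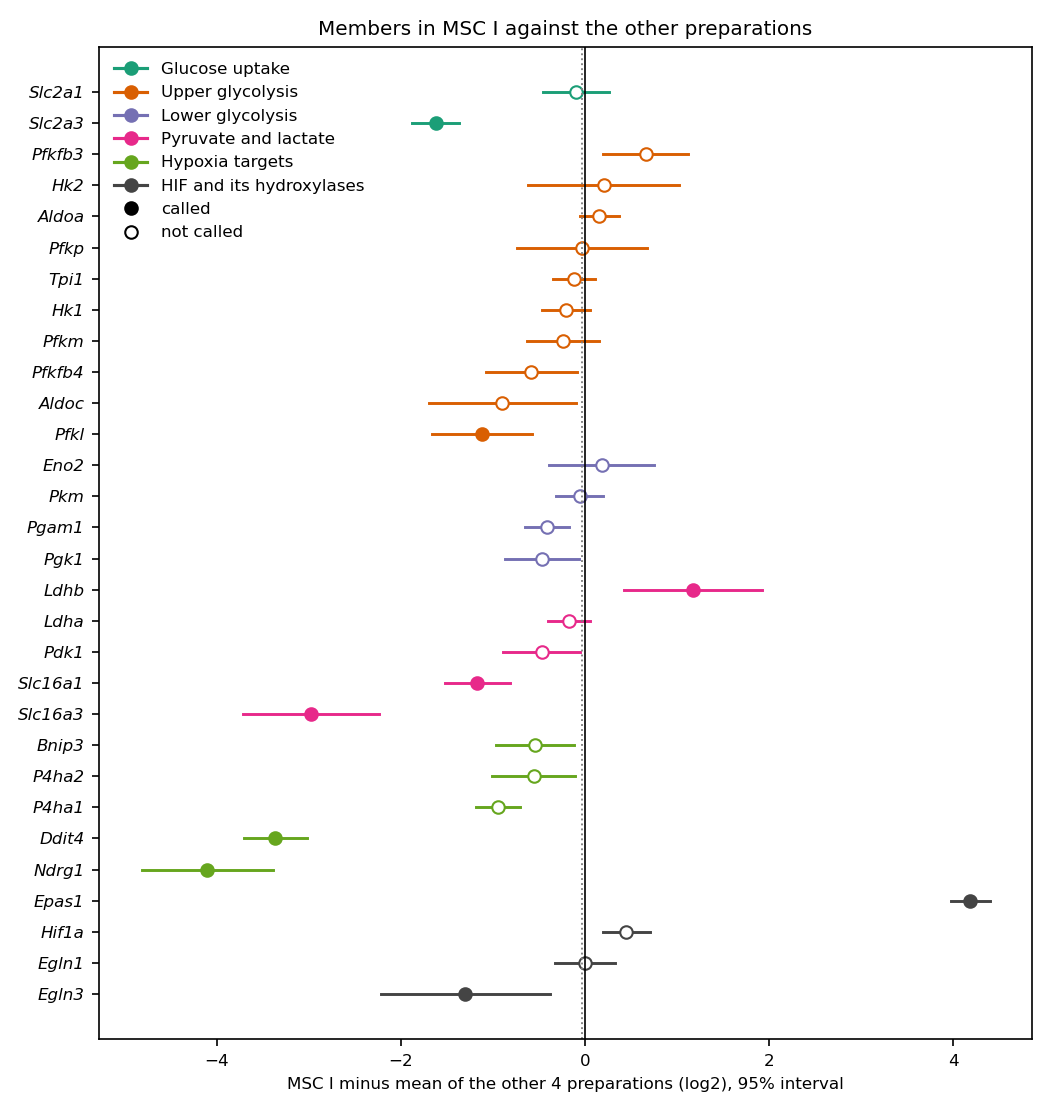
Points are the MSC I mean minus the mean of the other 4 preparations for the 30 tested members on the log2 scale, lines are 95% intervals from the limma fit, and filled points were called. The dotted line marks the median of all tested genes, -0.03. Within each role the members are ordered by their difference, and the called ones run from -4.10 for Ndrg1 to 4.18 for Epas1.

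Counted by preparation, MSC I had the most members called. It had 7 of 30 members called lower (23.3%), where 5.22% of all tested genes were, and 2 called higher (6.67%), where 7.73% of all were, or 1 of 29 (3.45%) without Epas1. The 7 were Slc2a3, Pfkl, Slc16a1, Slc16a3, Ndrg1, Ddit4 and Egln3, and the 2 were Ldhb and Epas1. Of the 7, Slc2a3, Ddit4 and Egln3 passed the filter only through the other preparations, with both MSC I arrays below the table median. The filter thus favoured a lower MSC I for them, and no count without them is given. The median difference of the members in MSC I was -0.32, against -0.03 over all tested genes, and 22 of 30 were negative, as were 52.8% of all tested genes. Of 6 tested adipocyte markers 6 were called higher in MSC I (median 3.55). Adipoq, Plin1 and Cidec passed the filter only through MSC I, so that direction was fixed for them. Another adipocyte marker, Lep, was at 4.92 and 4.99 in MSC I and was not tested. Of 7 proliferation markers 2 were called higher in MSC I (median 1.23), and of 5 osteoblast markers 2 were called lower (median -1.49). The part of these markers in the member differences was not tested. Against MSC V alone, MSC I had 7 members lower (23.3%, where 4.43% of all genes were) and 3 higher (10%, where 6.1% were), or 2 of 29 (6.9%) without Epas1. The 7 were Slc2a3, Aldoc, Slc16a1, Slc16a3, Ndrg1, P4ha2 and Ddit4, and the 3 were Pfkfb3, Ldhb and Epas1. The same limit of the filter holds for Slc2a3 and Ddit4 here. Besides the calls of Pfkfb3 and P4ha2 described above, that of Ldhb was ended by the replicate block, without replicate 1 of MSC I and without replicate 2 of MSC V. That of Slc16a1 was ended without the same arrays in turn, and that of Slc2a3 without replicate 2 of MSC V. Both comparisons use the same MSC I arrays, so they are not separate evidence. Their values for the shared members lay side by side as follows: Ndrg1 -4.10 against the other four and -3.97 against MSC V, Ddit4 -3.36 and -2.71, and Slc16a3 -2.97 and -3.42.

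Each of the other preparations had 3 or 4 members called, too few to read a share closely. In MSC II 1 member, Ddit4, was called higher (3.33%, background 2.45%) and 2, Pfkp and Aldoc, lower (6.67%, background 2.69%). MSC III had Slc2a3 and Ddit4 higher (6.67%, background 1.31%) and Epas1 lower (3.33%, background 0.957%), all 3 of which rested on MSC I being in the reference. Of its 30 member differences 26 were above 0, as were 51.7% over all tested genes, with a median of 0.29 beside 0.01, and these values carry no test. In MSC IV Ndrg1 was higher (3.33%, background 3.29%) and Ldhb and Epas1 lower (6.67%, background 7.7%). MSC V had Aldoc, Slc16a3 and Pfkp higher (10%, background 2.11%), of which Aldoc alone held in every setting, and 1 lower (3.33%, background 1.44%), which was Epas1.

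A further 122 genes on 4 lists give the surroundings of the members. Over all tested genes, 29.1% were called by the F test with a range of at least 1 log2 and 52.2% had an adjusted p under 0.05. Of 36 tested other hypoxia targets 14 were called and 21 had an adjusted p under 0.05. In MSC I 7 of the 36 were called lower (19.4%, where 5.22% of all genes were) and 2 higher (5.56%, where 7.73% were). Of the 2 higher, Selenbp1 passed the filter only through MSC I, so its direction was fixed. It was at 7.73 and 7.17 there and between 5.49 and 5.84 elsewhere. The lower ones included Vldlr, a lipoprotein receptor (difference -3.38, SE 0.656, adjusted p = 0.00566), Ak4, a mitochondrial adenylate kinase (difference -2.67, SE 0.286, adjusted p = 0.000387), Tmem45a (difference -2.19) and Pgf, a growth factor of the VEGF family (difference -1.36). Pgf was highest in MSC V, where its arrays were at 9.79 and 8.40 and those elsewhere between 5.74 and 7.74. Both MSC I arrays of Pgf were below the table median, so it passed the filter only through other preparations. Adm, which encodes the vasodilator adrenomedullin and is a textbook hypoxia target, ran the other way: it was at 10.20 and 11.15 in MSC I and between 5.74 and 8.10 elsewhere (difference 3.63, SE 0.473, adjusted p = 0.000978). The hypoxia targets thus differed in both directions in MSC I.

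Of 28 tested other genes of glycolysis and glucose use, 15 had an F adjusted p under 0.05, where 52.2% of all tested genes had. Of the 28, 12 were called by the F test, where 29.1% of all were. In MSC I 2 were called higher, where 7.73% of all tested genes were, and 1 lower, where 5.22% were. Gpd1, which turns a glycolytic intermediate into glycerol phosphate for fat, was at 9.24 and 8.36 in MSC I and between 5.53 and 6.43 elsewhere (difference 3.01, SE 0.232). Gpd1 is among the 2 called higher, but it passed the filter only through MSC I. A positive difference there was thus fixed and is given as a description. Gpd1l, its homologue, was higher by 1.22 (SE 0.121, adjusted p = 0.000259). The monocarboxylate carrier Slc16a7 was at 5.46 and 5.16 in MSC I and at 5.28 and 5.18 in MSC IV, below the table median in both, and between 6.66 and 7.48 elsewhere. Eno3, the muscle enolase, was lowest in MSC II at 9.86 and 10.32, and lay between 11.26 and 12.80 in the 8 other arrays. Of the pyruvate dehydrogenase kinases, Pdk3 was at 9.87 and 10.06 and Pdk4 at 11.39 and 10.94 in MSC IV, each below all other arrays.

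Of 20 tested genes of the HIF pathway, 5 had an F adjusted p under 0.05, and 4 of them, Arnt2, Usp20, Txnip and Siah2, were called with a range of at least 1 log2. Both are smaller shares than the 52.2% and 29.1% of all tested genes. In MSC I 3 were called lower, where 5.22% of all tested genes were, and 0 higher, where 7.73% were. Arnt2, a partner subunit of HIF alpha, was at 6.31 and 6.58 in MSC I and at 6.74 and 6.42 in MSC IV, while the other 6 arrays lay between 7.97 and 8.49. Siah2, a ubiquitin ligase that degrades the prolyl hydroxylases, had a difference of -1.26 in MSC I (SE 0.226, adjusted p = 0.00398), and Txnip, which curbs glucose uptake, one of -1.20 (SE 0.254, adjusted p = 0.00803). Of 25 tested genes of pyruvate use and the TCA cycle, 10 had an F adjusted p under 0.05 and 2 of them, Pcx and Pdp2, were called with a range of at least 1 log2. These too are smaller shares than the 52.2% and 29.1% of all tested genes. Pcx, pyruvate carboxylase, which feeds the cycle and fatty acid synthesis, was at 11.15 and 10.84 in MSC I and between 8.57 and 9.71 elsewhere (difference 1.77, SE 0.262, adjusted p = 0.00174).

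By Pearson correlation over the 10 arrays, as a description, the profiles most like that of Ndrg1 were those of Eif4a2 (0.982), Nceh1, Pdgfc, Tmem161a and Emp2, and those most like Ddit4 were Clybl (0.987), Dgka, Stim2, Nbea and Ago3. The profiles most like Slc2a3 were those of Tpd52l1 (0.98), Kars, Cad, Pcdhb16 and Arhgap10. For Car9, whose profile is 1 high array, they were Ppp1r16b (0.99), Acox2, Hmcn1, Upb1 and Lin7a. None of these genes is a member, and with 10 arrays in 5 pairs the values are a description without a test.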

How the data were processed

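The log2 expression values of 35399 probe sets on 10 arrays were used as the authors deposited them. They were made with RMA and Partek, per the submitters' processing notes, whose versions are not given in the sources used here. The RMA steps of background correction, quantile normalisation and probe summary compress differences between low values. Detection calls were not part of the data used. Of the probe sets, 21789 had 1 gene symbol in the platform annotation, 1621 several and 11989 none. For each of 19938 genes the probe set with the highest mean was used, and the 10971 genes with at least 2 arrays above the table median were tested. The model was fitted in R 4.3.3 with limma 3.58.1 (lmFit, eBayes), and figures were drawn in Python 3.11.15. Two-sided p-values were adjusted over all tested genes by Benjamini-Hochberg, a call needed an adjusted p under 0.05 and at least 1 log2, and errors after differences are standard errors. The script was tested on simulated data. The number of arrays limits the precision.

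The members, the further lists and the markers were chosen with earlier results of these data known. Any member could be named, of each further list up to 6 genes by the range of preparation means among F calls, and for Slc2a3, Car9 and the 3 members with the largest range the 5 genes most like them. Selenbp1 was named outside that rule, because the filter fixed its direction in MSC I. Car12, Stc2 and Cox4i2 on its list had larger ranges. Of 134 further entries, 122 were matched to a probe set naming no other gene. The deviations of same-numbered replicates had correlations from -0.555 to 0.203 over 10 pairs of preparations, so the numbers were not taken as pairs. With 2 replicates, a negative value means that replicate 1 of a preparation deviated like replicate 2 of another. Arrays of different preparations may thus share deviations across the numbers, which was not tested. Alternatives were no low-value filter, a filter at the 75th percentile (9.22), averaging a gene's probe sets, centring arrays on their medians, quantile normalisation applied again, trended and robust eBayes, a replicate block, each array left out in turn, a reference without MSC I (for MSC I, without MSC IV) and a minimum fold of 1.5. MSC II to MSC V alone and every probe set by itself were added after seeing the data. Where an array was left out, the lone array of that preparation was assumed to vary like the others. Promoter sequences were RefSeq's, for assembly GRCm38.p6.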

Additional observations from a re-analysis of the deposited data

How the results depend on the processing

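Of the counts of members called, the following moved by more than 1.5 times. With no low-value filter, and likewise with the replicate number as a block, MSC II had 1 (from 3) and MSC V 2 (from 4). With the filter at the 75th percentile 8 members were called among the 5 preparations (from 13), 1 in MSC III (from 3), 2 in MSC V and 6 in MSC I against MSC V (from 10). That filter left Slc2a3, Pfkp, Pfkfb3, P4ha2 and Epas1 untested, as each had fewer than 2 arrays above 9.22. It ended no call of a member that it still tested. With MSC I out of the reference MSC III had 0 (limma; 1 at the adjusted p alone and 8 at an unadjusted p under 0.05) and MSC V 2. With a minimum fold of 1.5 MSC II had 6 and MSC IV 5 (from 3). MSC II to MSC V alone gave 3 among the preparations, and 5 by the adjusted p alone (from 14). The difference of Epas1 in MSC V turned to 0.043 without MSC I in the reference. Leaving out each array in turn gave 7 to 13 members called among the preparations, 9 to 15 by the adjusted p alone, 6 to 9 in MSC I, 1 to 3 in MSC II, 2 to 4 in MSC III, 2 to 4 in MSC IV, 1 to 4 in MSC V and 7 to 10 in MSC I against MSC V. The lowest count among the preparations came without replicate 2 of MSC I, the lowest by the adjusted p alone without its replicate 1, and the count of 1 in MSC V without either array of MSC I, replicate 2 of MSC II or replicate 1 of MSC V. No share of all genes is given beside any count in this paragraph, so none of the moves is read as particular to the members. Other causes of these moves were not tested.

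With the replicate number as a block, 10 members were called among the 5 preparations, 8 in MSC I, 1 in MSC II, 3 in MSC III, 3 in MSC IV, 2 in MSC V and 9 in MSC I against MSC V. For this setting too no share of all genes is given, so its counts are not read as particular to the members. Of the tested members, Epas1, Ddit4, Slc2a3 and Egln3 had preparations below the table median, where signal over background limits the size of a difference.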
